A study of Mus musculus with 12 samples.

Results

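The insulin-like growth factor 1 (IGF1) axis was followed here through 9 genes, namely the ligand Igf1, the receptors Igf1r and Igf2r, and the IGF binding protein genes Igfbp2, Igfbp3, Igfbp4, Igfbp5, Igfbp6 and Igfbp7. They were chosen by gene symbol from the deposited count table, which holds 52550 genes, and all 9 were present and passed the filter on low counts. The table came from bulk RNA sequencing of whole lungs of 12 neonatal C57Bl/6J mice, each sequenced as its own library and split into 4 groups of 3. WT mice (Adm+/+) and Adm+/- mice, which carry a single working copy of the adrenomedullin gene, received intraperitoneal phosphate-buffered saline (PBS) or a bacterial endotoxin, the lipopolysaccharide (LPS) of Escherichia coli O55:B5, at 6 mg/kg. Injections were given once daily for 3 days from postnatal day 3, and the lungs were taken on postnatal day 5, 6 h after the last one. The Adm+/- line had been backcrossed to C57BL/6J from another strain. Libraries are named here by their number in the labels. WT PBS comprised replicates 3, 4 and 5, and WT LPS comprised replicates 9, 10 and 11. Replicates 6, 7 and 8 formed the Adm+/- PBS group, with replicates 1, 2 and 12 as Adm+/- LPS, and values are listed in this order.

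IGF1 is a small secreted hormone, made by the liver for the circulation and by mesenchymal cells within tissues, that signals through the tyrosine kinase IGF1R to promote growth and survival. IGF2R, the cation-independent mannose 6-phosphate receptor, does not signal growth but removes IGF2 from the cell surface and sorts lysosomal enzymes. The IGF binding proteins are secreted carriers that hold IGFs away from their receptor or deliver them to it, and proteases that cut them set IGFs free. In the postnatal lung, IGF1 signalling takes part in the formation of alveoli and their capillaries.

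The libraries held between 22382535 and 38062873 counts (median 28494877), and each member had at least 236 counts in every library. A pair of PBS libraries stood apart from the rest before any comparison. WT PBS replicate 5 and Adm+/- PBS replicate 6 had 77.8% and 80.1% of their counts on protein-coding genes (84.3% to 87.6% elsewhere) and 16.6% and 13.3% on the single non-coding gene Gm26917 (5.42% to 7.40% elsewhere). The 12 lung fibroblast markers summed to 46032.5 and 30337 CPM (counts scaled to the TMM-adjusted total of the tested protein-coding genes in each library) in these libraries, against 12311 to 18405 CPM in the others. Test results that rest on these libraries are therefore given with and without them. The type II pneumocyte markers summed to between 13279 and 17186 CPM in every library. In the LPS comparisons described below, 1 of these 9 genes was called higher in WT mice, and 3 higher and 1 lower in Adm+/- mice. Adm itself lay at 3.96 to 7.09 CPM in WT PBS and at 2.87 to 4.58 CPM in Adm+/- PBS, with a log2 difference of -0.50 (SE 0.32, adjusted p = 0.999), so a lower Adm level was not detectable gene by gene.

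The promoters of Igfbp3 and Igfbp2 are shown because these members responded to LPS in both genotypes and in opposite directions. Each run is the 250 bases before the start of the gene in RefSeq, on the mouse build mm10 and written 5′ to 3′ on the strand of the gene. Igfbp3 lies at chr11:7206086-7213923 on the minus strand, with 5 exons, and its window at chr11:7213924-7214173. Igfbp2 lies at chr1:72824503-72852474 on the plus strand, with 5 exons, and its window at chr1:72824230-72824479. Igfbp2 has a second start in RefSeq that is not shown. The capitals mark a TATATA run in Igfbp3, a motif added after the sequence was read, and the GC boxes (GGGCGG, a site bound by Sp1 family factors) in Igfbp2.
Igfbp3: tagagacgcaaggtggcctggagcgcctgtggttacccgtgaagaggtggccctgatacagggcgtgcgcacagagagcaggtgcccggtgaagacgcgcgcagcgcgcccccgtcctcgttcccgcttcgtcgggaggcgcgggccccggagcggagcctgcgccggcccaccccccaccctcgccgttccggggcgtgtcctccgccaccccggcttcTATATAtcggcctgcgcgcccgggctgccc
Igfbp2: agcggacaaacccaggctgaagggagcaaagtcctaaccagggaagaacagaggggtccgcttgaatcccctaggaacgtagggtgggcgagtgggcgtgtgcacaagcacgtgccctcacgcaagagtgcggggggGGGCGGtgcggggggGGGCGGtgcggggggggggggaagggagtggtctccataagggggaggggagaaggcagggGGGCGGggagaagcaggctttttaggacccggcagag
The Igfbp3 window had a GC content of 73.2% and the Igfbp2 window 67.2%, against a median of 56% over 19941 windows of protein-coding genes. The TATATA run of Igfbp3 spans bases -30 to -25, and 4.54% of all windows hold one on either strand. Igfbp2 holds 3 GC boxes, beginning at bases -113, -98 and -37, and 44.1% of all windows hold at least 1. Neither window held the STAT motif TTCNNNGAA (6.64% of all windows), the FoxO motif GTAAACA (2.59%), TATAAA (11.2%) or the NF-kappa B motif (5.51%), searched on both strands. Among the other members, the only NF-kappa B matches were an overlapping pair, 1 on each strand, in the Igfbp5 window from base -196. Such matches describe these letters only.

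LPS was compared with PBS within each genotype to ask how the IGF axis responds to neonatal endotoxin. A gene was called when edgeR's quasi-likelihood test gave a Benjamini-Hochberg adjusted p below 0.05 over 15885 tested genes together with an absolute log2 fold change above 0.5. Igfbp3 rose in both genotypes, about 5.16-fold in WT mice and 9.82-fold in Adm+/- mice. Igfbp2 fell in both, to 0.346 and 0.464 of its PBS level. Igfbp4 fell in WT mice, to 0.668 of its PBS level, and no other member was called in either genotype. That made 3 of 9 members called in WT mice, where 17.6% of all tested genes were called (10.5% higher and 7.09% lower), and 2 of 9 in Adm+/- mice, where 25% were called (12.8% higher and 12.2% lower). The median log2 fold change of the members was -0.14 in WT and 0.05 in Adm+/- mice, beside 0.01 and -0.01 over all tested genes. Whole lungs were sequenced, so a change in the number of cells that make a transcript cannot be told apart from a change in transcript per cell.

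**Figure D1:**
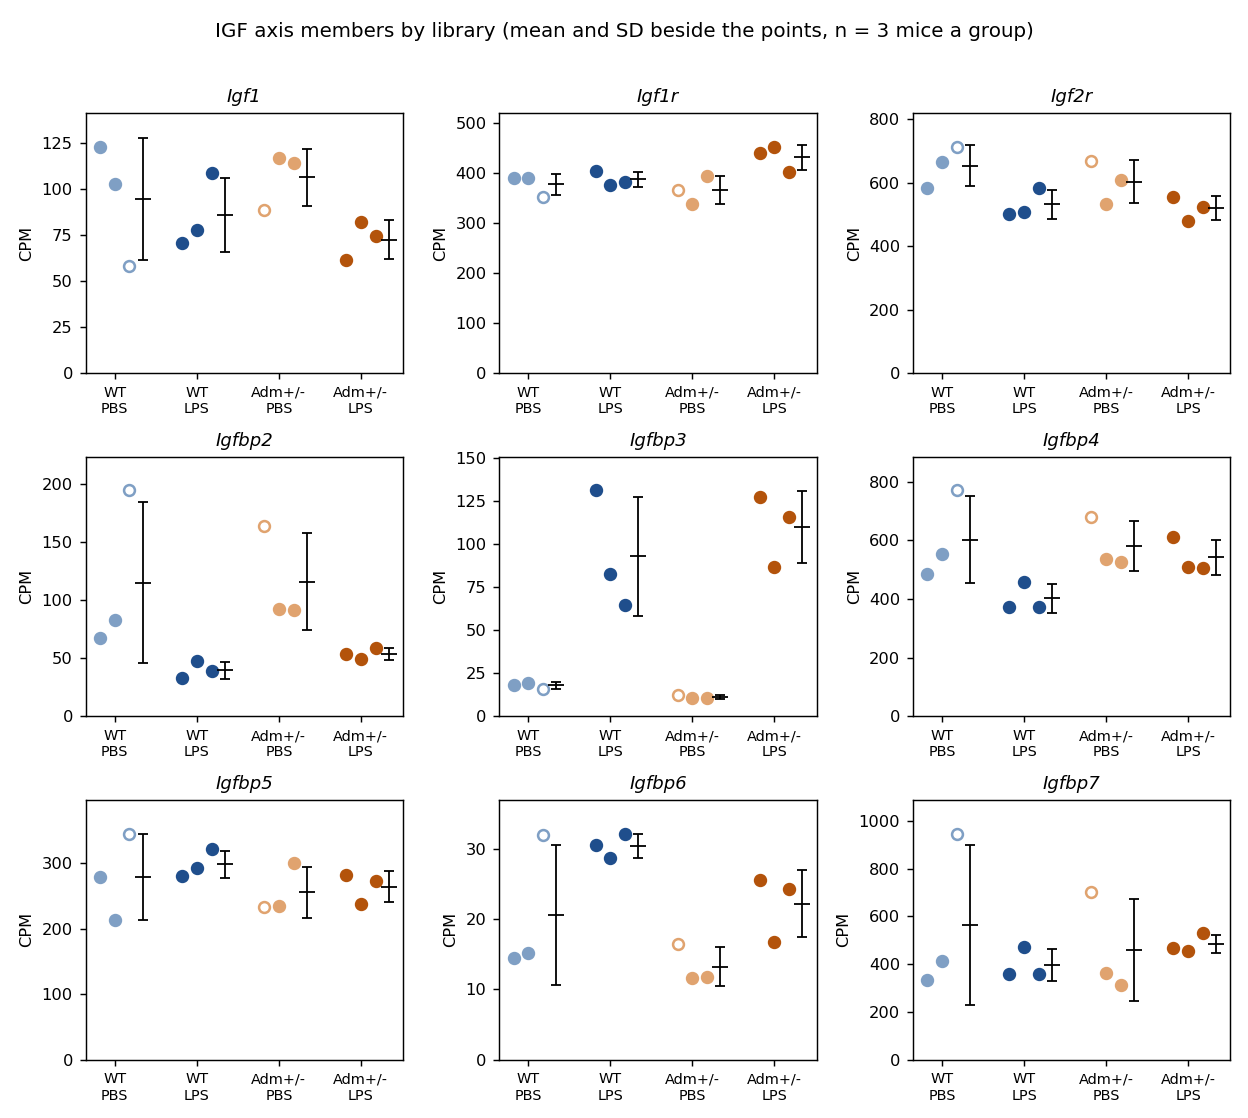
CPM of the 9 members in each of the 12 libraries (points), with the mean and SD of each group (bars, n = 3), on axes that start at 0. Open points are WT PBS replicate 5 and Adm+/- PBS replicate 6; Igfbp3 is at 10.4 to 19.7 CPM in all 6 PBS libraries and at 64.5 to 131 CPM in all 6 LPS libraries.

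Igf1, the ligand, is encoded at chr10:87858265-87937042 on the plus strand. It stood at 123, 103 and 58.3 CPM in WT PBS and at 71.0, 77.7 and 109 CPM in WT LPS. Igf1 in Adm+/- mice was at 88.5, 117 and 114 CPM in PBS and at 61.3, 82.1 and 74.4 CPM in LPS. The WT groups overlapped, with WT PBS replicate 5 the lowest of all 12 libraries, whereas every Adm+/- LPS library lay below every Adm+/- PBS library. The log2 fold change was -0.14 (SE 0.25, adjusted p = 0.705) in WT and -0.55 (SE 0.25, adjusted p = 0.115) in Adm+/- mice, neither of them called. Without both PBS libraries that stood apart, the value in Adm+/- mice was -0.67 and passed the threshold (adjusted p = 0.0177), as it did at -0.55 without WT PBS replicate 5 alone (adjusted p = 0.0297). It also passed in a fit of the 6 Adm+/- libraries alone (-0.55, adjusted p = 0.0143). The value in WT mice without both PBS libraries was -0.40 and did not pass (adjusted p = 0.141). The antisense gene Igf1os had 8 to 33 counts per library, beside at least 943 for Igf1.

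Igf1r, the signalling receptor, at chr7:67952827-68233668 on the plus strand, varied least of the members. Its level was 389.8, 389 and 352 CPM in WT PBS and 404, 375 and 382 CPM in WT LPS. Igf1r in Adm+/- mice was at 366, 338 and 393 CPM in PBS and 439, 451 and 402 CPM in LPS. The highest library was 1.33 times the lowest, and the Adm+/- LPS libraries lay above the Adm+/- PBS libraries by a small margin. The log2 fold change was 0.04 (95% CI -0.16 to 0.24) in WT and 0.23 (95% CI 0.03 to 0.43, adjusted p = 0.0732) in Adm+/- mice. Changes of Igf1r beyond 0.5 on the log2 scale therefore lay outside both intervals.

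Igf2r, the clearance receptor, at chr17:12682406-12769664 on the minus strand, was measured at 584, 667 and 713 CPM in WT PBS and 502, 509 and 585 CPM in WT LPS. Igf2r in Adm+/- mice was at 669.9, 534 and 608 CPM in PBS and 556, 479.8 and 523 CPM in LPS. Its group means were lower in LPS in both genotypes, but the groups overlapped by a library or more in each. The log2 fold change was -0.30 (SE 0.12, adjusted p = 0.0862) in WT and -0.22 (SE 0.12, adjusted p = 0.179) in Adm+/- mice. The antisense non-coding gene Airn overlaps Igf2r and lay at 28.4 to 55.0 CPM. The library kit marks strand, but the strand setting of the counting is not given in the sources used here, so reads of this pair may be mixed to an extent that is unknown.

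Igfbp3, the main carrier of IGFs in blood, where it binds them together with the acid-labile subunit, gave the largest response among the members. It stood at 18.3, 19.7 and 15.9 CPM in WT PBS and at 131, 83.0 and 64.5 CPM in WT LPS. Igfbp3 in Adm+/- mice was at 12.4, 10.8 and 10.4 CPM in PBS and at 128, 86.8 and 116 CPM in LPS. All 6 LPS libraries lay above all 6 PBS libraries. On the log2 scale Igfbp3 rose by 2.37 in WT mice (SE 0.24, 95% CI 1.84 to 2.89, adjusted p = 0.000149) and by 3.30 in Adm+/- mice (SE 0.25, 95% CI 2.75 to 3.84, adjusted p = 4.02e-05). The call held under all 22 alternatives in each genotype, with values from 2.03 to 2.57 in WT and from 3.18 to 3.44 in Adm+/- mice. The 10 neutrophil markers moved with it, since their summed level went from 65.4 to 197 CPM in WT PBS to 1784 to 3113 CPM in WT LPS, and from 44.1 to 73.4 CPM in Adm+/- PBS to 1686 to 2012 CPM in Adm+/- LPS. WT LPS replicate 9 was highest for both. All 10 were called higher in both genotypes, none was at 0 in every library, and their part in the Igfbp3 values was not tested. The macrophage and monocyte list separated the libraries in the same way, at 239 to 269 CPM in WT PBS and 405 to 662 CPM in WT LPS, and at 219 to 244 CPM in Adm+/- PBS and 388 to 476 CPM in Adm+/- LPS. Of its 10 genes, 7 and 6 were called higher, and 1 was called lower in Adm+/- mice. The squamous epithelium list lay at 1.18 to 4.63 CPM in the PBS libraries and at 4.70 to 2979.5 CPM in the LPS libraries, with 7 and 0 of its 8 tested genes called higher. Their part in the Igfbp3 values was not tested either.

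Igfbp2, a carrier that binds both IGF1 and IGF2, moved in the opposite direction. It stood at 67.6, 83.3 and 194 CPM in WT PBS and at 32.98, 47.4 and 38.99 CPM in WT LPS. Igfbp2 in Adm+/- mice was at 164, 92.1 and 91.4 CPM in PBS and at 53.6, 49.0 and 58.6 CPM in LPS. All 6 PBS libraries lay above all 6 LPS libraries, and WT PBS replicate 5 and Adm+/- PBS replicate 6 were the highest. On the log2 scale Igfbp2 fell by 1.53 in WT mice (SE 0.36, adjusted p = 0.0123) and by 1.11 in Adm+/- mice (SE 0.35, adjusted p = 0.0347). Without both of these libraries the values were smaller and still called, at -0.93 in WT (adjusted p = 0.00346), and the Adm+/- value was -0.77 (adjusted p = 0.00331). The WT call was lost without WT LPS replicate 9, at -1.42 (adjusted p = 0.0626), and in a fit of the 6 WT libraries alone, at -1.53 (adjusted p = 0.0559). Against a minimum log2 fold change of 0.5 (glmTreat) neither call held (adjusted p = 0.0519 in WT and 0.149 in Adm+/- mice). The Adm+/- call was lost without Adm+/- PBS replicate 6, at -0.78 (adjusted p = 0.139), and without Adm+/- LPS replicate 1, 2 or 12, at -1.11, -1.05 and -1.17 (adjusted p = 0.0912, 0.103 and 0.0768).

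Igfbp4, an inhibitory carrier that the protease PAPP-A cuts, lies at chr11:99041244-99054392 on the plus strand. It stood at 485, 553 and 770.4 CPM in WT PBS and at 374, 459.6 and 374 CPM in WT LPS. Igfbp4 in Adm+/- mice was at 679, 538 and 527 CPM in PBS and at 612, 508 and 507 CPM in LPS. The WT groups did not overlap, and the Adm+/- groups did. The WT log2 value of Igfbp4 fell by 0.58 (SE 0.17, adjusted p = 0.0353), while the value in Adm+/- mice was -0.10 (SE 0.17, adjusted p = 0.704). The WT call was not stable, and it was lost in a fit of the 6 WT libraries alone (-0.58, adjusted p = 0.106) and with glmTreat (adjusted p = 0.627). Without both PBS libraries that stood apart it was -0.37 (adjusted p = 0.0526), and it was also lost without WT PBS replicate 5 (-0.37, adjusted p = 0.0931), WT LPS replicate 9 (-0.54, adjusted p = 0.133), WT LPS replicate 11 (-0.53, adjusted p = 0.0948) or Adm+/- LPS replicate 12 (-0.58, adjusted p = 0.0506).

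Igfbp6, a carrier with a preference for IGF2, at chr15:102144362-102149511 on the plus strand, was at 14.5, 15.2 and 31.999 CPM in WT PBS and at 30.5, 28.7 and 32.1 CPM in WT LPS. Igfbp6 in Adm+/- mice was at 16.4, 11.6 and 11.8 CPM in PBS and at 25.6, 16.8 and 24.2 CPM in LPS. WT PBS replicate 5 was the only PBS library within the range of the LPS libraries. The log2 fold change was 0.57 (SE 0.28, adjusted p = 0.166) in WT and 0.75 (SE 0.29, adjusted p = 0.0667) in Adm+/- mice, neither called. Without WT PBS replicate 5 both passed the threshold, at 1.03 (adjusted p = 0.00655) and 0.76 (adjusted p = 0.00583), and without both PBS libraries that stood apart they were 1.03 (adjusted p = 0.00389) and 0.93 (adjusted p = 0.0026). With no library of the comparison left out, the Adm+/- value also passed with DESeq2 (0.76, adjusted p = 0.0337) and in a fit of the 6 Adm+/- libraries alone (0.75, adjusted p = 0.0159).

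Igfbp7, which binds IGFs weakly and is also known as a product of vessel walls, lies at chr5:77349240-77408041 on the minus strand. It stood at 334, 412 and 946 CPM in WT PBS and at 358, 473 and 359 CPM in WT LPS. Igfbp7 in Adm+/- mice was at 702, 363 and 311 CPM in PBS and at 469.5, 455 and 529 CPM in LPS. The PBS libraries that stood apart were the highest of all 12, and the other libraries lay between 311 and 529 CPM. Gm34648 (1.05 to 4.69 CPM) and Polr2b overlap Igfbp7 on the opposite strand. The log2 fold change was -0.51 (95% CI -1.32 to 0.31) in WT and 0.08 (95% CI -0.73 to 0.89) in Adm+/- mice. Without both of those libraries it was 0.09 (adjusted p = 0.704) in WT mice and 0.52 in Adm+/- mice, where it was called (adjusted p = 0.0207).

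Igfbp5, a carrier held in the extracellular matrix, lies at chr1:72857932-72874884 on the minus strand, 5457 bases from Igfbp2 and pointing towards it. It was at 279.9, 213 and 345 CPM in WT PBS and at 281, 293 and 321 CPM in WT LPS. Igfbp5 in Adm+/- mice was at 233, 234 and 301 CPM in PBS and at 282, 238 and 273 CPM in LPS. The groups overlapped in both genotypes, and the log2 fold changes were 0.10 (95% CI -0.26 to 0.45) and 0.05 (95% CI -0.31 to 0.41). Its neighbour Igfbp2 fell in the same libraries.

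**Figure D2:**
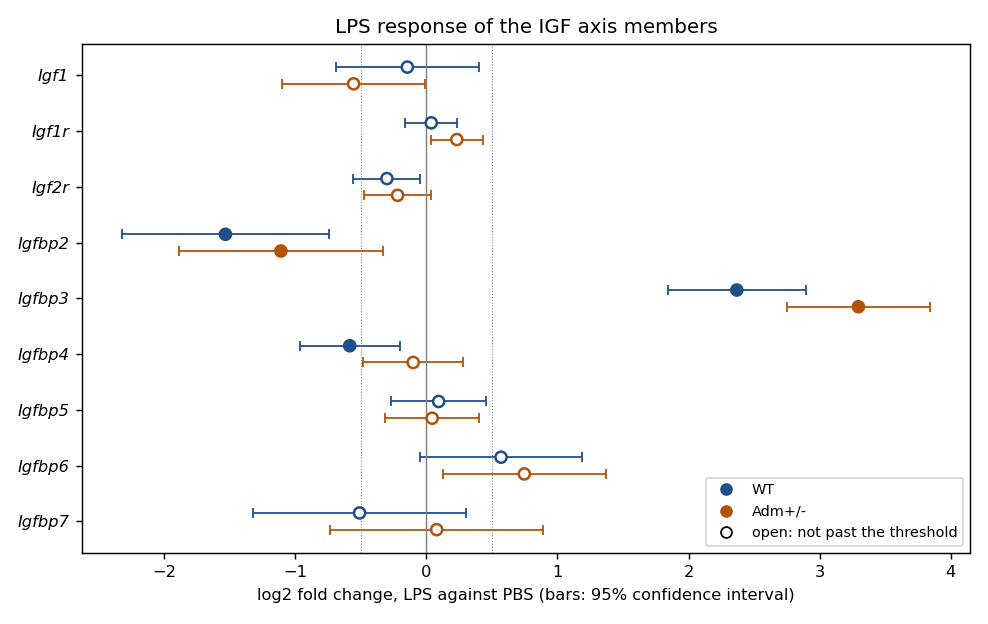
Log2 fold change of LPS against PBS for the 9 members in WT (blue) and Adm+/- (orange) mice, with 95% confidence intervals, filled where the gene was called and with dotted lines at 0.5 in either direction. Igfbp3 lies at 2.37 and 3.30, Igfbp2 at -1.53 and -1.11, and the other members between -0.58 and 0.75.

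Counted over both directions, the LPS and PBS libraries of a genotype did not overlap for 3 of 9 members in WT mice (Igfbp2, Igfbp3 and Igfbp4), against 36.2% of all tested genes. The same count in Adm+/- mice was 5 of 9 (Igf1, Igf1r, Igfbp2, Igfbp3 and Igfbp6), against 53.7%. Both shares lay near the background.

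The transcripts were then set on one scale as CPM per kb of exon, which allows levels of different genes to be compared. Over all 12 libraries Igfbp7 was the most abundant member at a mean of 394 CPM per kb, followed by Igfbp4 at 121, Igf2r at 62.1, Igfbp5 at 45.7, Igfbp2 at 43.9, Igf1r at 23.2, Igfbp6 at 19.4, Igfbp3 at 18.5 and Igf1 at 9.08. This order differed between the groups for the members that responded to LPS. Igfbp3 was at means of 5.74 and 3.59 CPM per kb in WT PBS and Adm+/- PBS, below Igf1 in every PBS library (means 9.56 and 10.8), and at 29.7 and 35.2 in WT LPS and Adm+/- LPS, above the Igf1r means of 23.0 and 25.6. In WT LPS replicate 11 Igfbp3 was below Igf1r, at 20.6 against 22.8 CPM per kb. Igfbp2 was at means of 62.3 and 62.7 CPM per kb in the PBS groups, above the Igfbp5 means of 46.5 and 42.6. In the LPS groups Igfbp2 was at 21.5 and 29.1, below the Igfbp5 means of 49.7 and 44.0, and below Igfbp5 in every library. The order in PBS was not uniform. Igfbp2 was below Igfbp5 in WT PBS replicate 3 (36.6 against 46.6) and Adm+/- PBS replicate 8 (49.5 against 50.1), and above it in the other PBS libraries. The margin was widest in the libraries that stood apart, at 105 against 57.5 in WT PBS replicate 5 and 88.8 against 38.7 in Adm+/- PBS replicate 6. Igfbp7 (257 to 782 CPM per kb) did not overlap with Igfbp4 (84.6 to 174), whereas Igf2r, Igfbp5 and Igfbp2 overlapped, as did Igf1r, Igfbp6 and Igfbp3. The highest library exceeded the lowest 12.6 times for Igfbp3 and 5.89 times for Igfbp2, but 1.33 times for Igf1r and 1.49 times for Igf2r.

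Of the summed CPM per kb of the 6 binding proteins, Igfbp3 made up 0.916% ± 0.414 (SD, n = 3) in WT PBS and 5.49% ± 2.30 in WT LPS. Its share in Adm+/- mice was 0.597% ± 0.127 in PBS and 5.37% ± 0.746 in LPS. The share of Igfbp2 was 8.19% ± 0.836 in WT PBS against 3.92% ± 0.394 in WT LPS, and 9.90% ± 0.336 in Adm+/- PBS against 4.46% ± 0.131 in Adm+/- LPS. Igfbp2 thus exceeded Igfbp3 in all 6 PBS libraries, and Igfbp3 exceeded Igfbp2 in 5 of the 6 LPS libraries, the exception being WT LPS replicate 11. In WT PBS replicate 5 and Adm+/- PBS replicate 6 the Igfbp2 share was 9.12% and 10.1%, beside 7.49% to 10.1% in the other PBS libraries. Igfbp7 held between 58.5% and 61.5% on average in the 4 groups, and the share of Igfbp6 was 2.53% ± 0.136 in WT PBS and 5.06% ± 0.821 in WT LPS, against 1.94% ± 0.244 and 3.04% ± 0.482 in Adm+/- mice. These shares are descriptions of composition and were not tested.

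**Figure D3:**
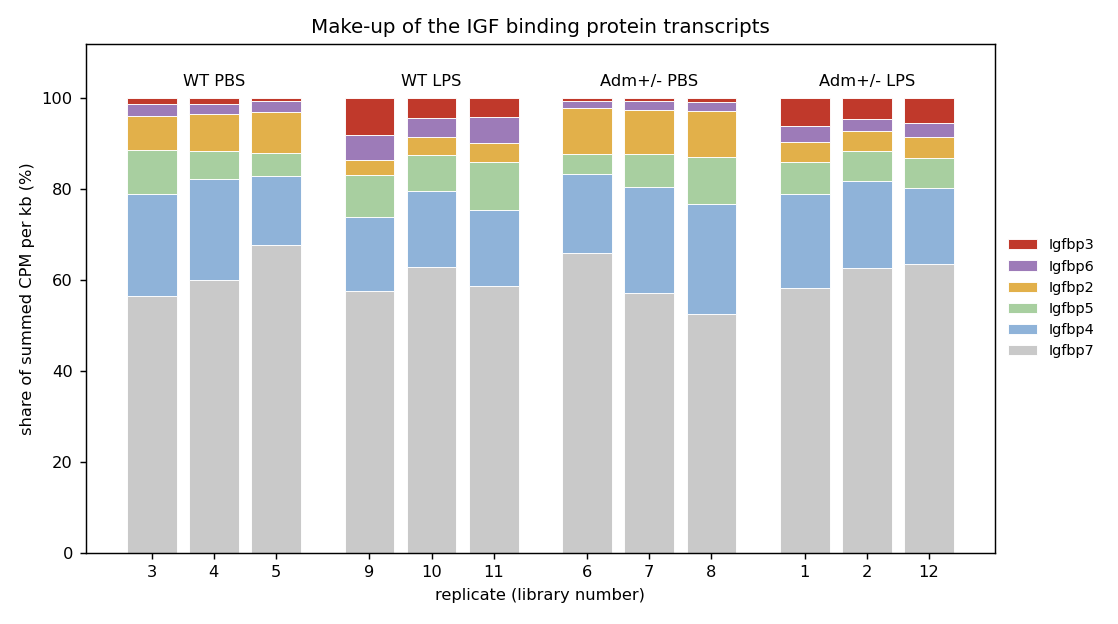
Share of each IGF binding protein gene in the summed CPM per kb of the 6 genes (stacked bars, percent), 1 bar per library in the order of the groups. The Igfbp3 segment is below 1.2% in all 6 PBS libraries and at least 4.08% in the 6 LPS libraries, and the Igfbp2 segment is at least 7.49% in PBS and at most 4.60% in LPS.

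The members that were high in WT PBS replicate 5 and Adm+/- PBS replicate 6 were set beside the summed lung fibroblast markers. Igfbp2, Igfbp4 and Igfbp7 reached their highest values where the markers were highest, at 46032.5 CPM (194, 770.4 and 946 CPM in WT PBS replicate 5) and 30337 CPM (164, 679 and 702 CPM in Adm+/- PBS replicate 6). Igf1 was lowest in WT PBS replicate 5, at 58.3 CPM, and Igfbp3 did not stand out in either library, at 15.9 and 12.4 CPM. Of the 12 fibroblast markers, 2 were called higher and 1 lower in WT mice, and 0 higher and 2 lower in Adm+/- mice. Like Igfbp2, the summed fibroblast list was higher in all 6 PBS libraries (17336 to 46032.5 CPM) than in all 6 LPS libraries (12311 to 16932 CPM). The same held for the endothelial list, at 3951 to 4519.8 CPM in WT PBS against 3256 to 3392 CPM in WT LPS, and at 4061 to 4391 CPM in Adm+/- PBS against 3423 to 3855 CPM in Adm+/- LPS, with 2 and 3 of 10 markers called lower. It also held for the smooth muscle and pericyte list, at 2608 to 3299 CPM in WT PBS against 2080.4 to 2601 CPM in WT LPS, and at 2759.8 to 3153 CPM in Adm+/- PBS against 2179.8 to 2573 CPM in Adm+/- LPS, with 1 and 0 of 10 markers called lower. The part of these cell types in the members' values was not tested.

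**Figure D4:**
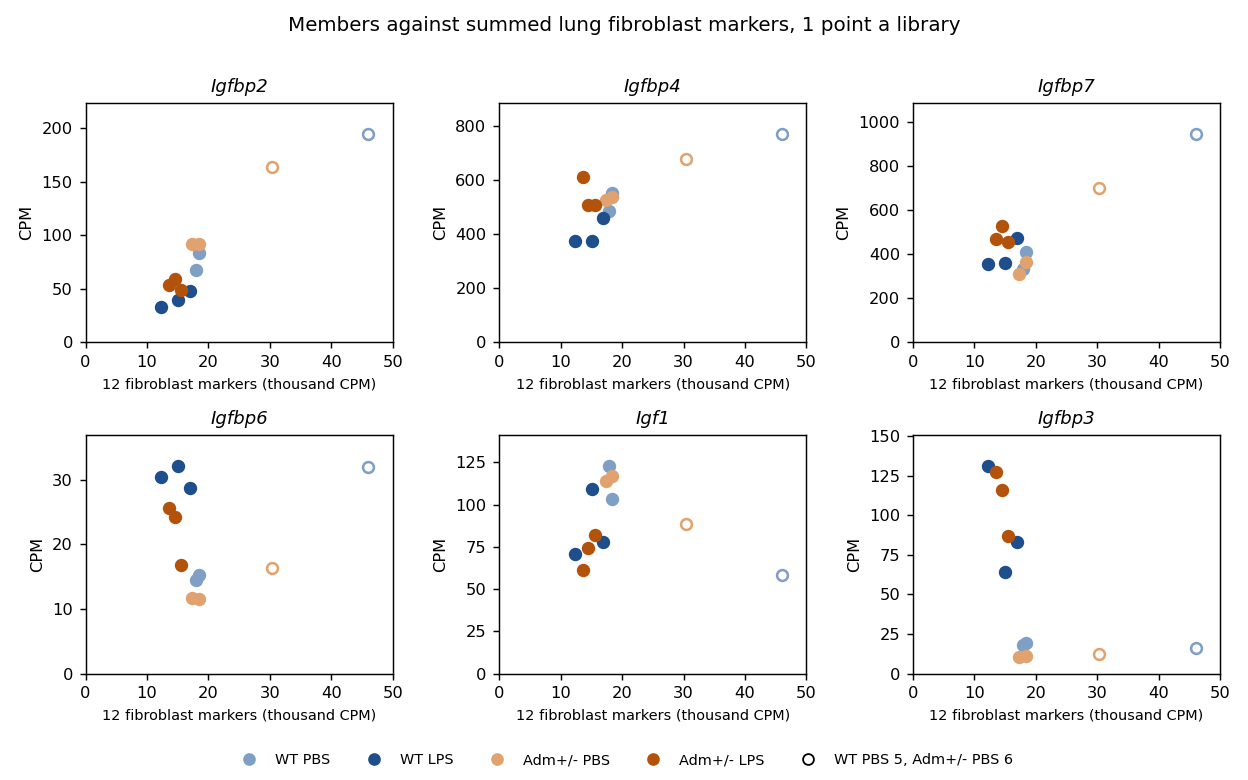
CPM of 6 members (vertical axes, from 0) against the summed CPM of 12 lung fibroblast markers (horizontal axes), 1 point per library. WT PBS replicate 5 and Adm+/- PBS replicate 6 (open points) lie to the right of the other 10 libraries, with the highest Igfbp2, Igfbp4 and Igfbp7 values.

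Adm+/- mice were compared with WT mice to ask whether a reduced Adm dose alters the axis. The LPS response of Igfbp3 was larger in Adm+/- mice by 0.93 on the log2 scale (95% CI 0.21 to 1.64), but the difference between responses was not called (adjusted p = 0.467). No member was called in this contrast, in which 0.145% of all tested genes were called. For Igfbp4 the difference was 0.48 (95% CI -0.05 to 1.02, adjusted p = 0.701), so its call in WT mice alone does not show a difference between genotypes. For Igfbp2 it was 0.42 (95% CI -0.67 to 1.51, adjusted p = 0.989), and its sign turned without WT PBS replicate 5, at -0.17.

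In PBS, no member was called, and 0% of all tested genes were, with 344 genes at an unadjusted p below 0.05 in edgeR. DESeq2 and limma-voom made 0 calls too, with 399 and 234 genes at an unadjusted p below 0.05. Igfbp3 was at 10.4 to 12.4 CPM in Adm+/- PBS and at 15.9 to 19.7 CPM in WT PBS, a log2 difference of -0.68 (95% CI -1.20 to -0.16, adjusted p = 0.999). It was the only member of 9 whose PBS groups did not overlap, against 4.99% of all tested genes. In LPS the Igfbp3 difference was 0.24 (95% CI -0.25 to 0.74, adjusted p = 0.751), and the groups overlapped. These contrasts share their libraries with the LPS responses and are no separate evidence.

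In LPS, no member was called either, where 2.05% of all tested genes were. Igfbp4 was at 507 to 612 CPM in Adm+/- LPS and at 374 to 459.6 CPM in WT LPS, a log2 difference of 0.43 (SE 0.17, adjusted p = 0.271). Igfbp2 (log2 difference 0.43, adjusted p = 0.697) was higher and Igfbp6 (-0.45, adjusted p = 0.542) lower in every Adm+/- LPS library than in any WT LPS library. With Igfbp4 these made 3 of 9 members without overlap, against 24.6% of all tested genes.

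The wider pathway was read from a list of 47 other genes, of which 45 passed the filter. In WT mice 8 were called higher and 3 lower, beside 10.5% and 7.09% of all tested genes, with a median log2 fold change of 0.14. In Adm+/- mice 12 were called higher and 3 lower, beside 12.8% and 12.2%, with a median of 0.19. None of the 45 was called between the genotypes in PBS (0% of all tested genes) or in the difference between responses (0.145%), and 1, Igf2, was called between them in LPS (2.05%). Of the genes not tested, Igfbp1, next to Igfbp3 on chromosome 11, had 0 to 10 counts per library, and Igfbpl1 had 1 to 7, so neither binding protein was detectable at a level that can be compared.

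Among the proteases that cut IGF binding proteins, and their inhibitors, Pappa rose in both genotypes. It encodes PAPP-A, which cuts IGFBP4, and stood at 4.69 to 7.03 CPM in WT PBS and at 13.3 to 33.96 CPM in WT LPS, a log2 fold change of 1.75 (SE 0.37, adjusted p = 0.00747), with 1.89 (SE 0.37, adjusted p = 0.00288) in Adm+/- mice. Stc2, which encodes an inhibitor of PAPP-A, rose as well, by 1.05 in WT (adjusted p = 0.00705), and the Adm+/- rise was 1.49 (adjusted p = 0.000614). Htra1, a secreted protease, fell by 1.49 and 1.05 (adjusted p = 0.0112 and 0.0364). The Adm+/- call of Htra1 was lost without Adm+/- PBS replicate 6 or 8 (-0.87 and -1.11, adjusted p = 0.118 and 0.0638) and without Adm+/- LPS replicate 1 or 12 (-0.84 and -0.99, adjusted p = 0.132 and 0.109), as well as without both PBS libraries that stood apart (-0.86, adjusted p = 0.0855). The related genes Pappa2 and Stc1 were not called, with log2 fold changes of -0.47 and -0.46 in WT mice and -0.35 and -0.40 in Adm+/- mice. Without both PBS libraries that stood apart, Stc1 was called lower in both genotypes, at -0.81 (adjusted p = 0.00855) and -0.65 (adjusted p = 0.0107).

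Downstream of Igf1r, Irs1, an adaptor that links the receptor to PI3K, fell by 0.75 in WT (SE 0.15, adjusted p = 0.00663) and by 1.42 in Adm+/- mice (SE 0.16, adjusted p = 0.000115). The WT call of Irs1 was lost in a fit of the 6 WT libraries alone (-0.75, adjusted p = 0.0554). Its level was 125 to 158 CPM in WT PBS and 69.5 to 107 CPM in WT LPS, against 149 to 178 CPM and 55.3 to 62.2 CPM in Adm+/- mice. The sister adaptor Irs2, named after its values were seen, rose by 1.72 in Adm+/- mice (adjusted p = 0.000476) and had a value of 0.70 in WT mice that was not called (adjusted p = 0.0593), though it was with DESeq2 (0.71, adjusted p = 0.0254), with limma-voom (0.74, adjusted p = 0.0463), and without WT PBS replicate 4 (1.08, adjusted p = 0.00378) or WT LPS replicate 11 (0.87, adjusted p = 0.0346). Foxo3, a factor held out of the nucleus by Akt, rose by 0.85 and 1.46 (adjusted p = 0.00655 and 0.00018), though the 6 WT libraries alone did not give the WT call (0.85, adjusted p = 0.0543). Of the 14 genes of the PI3K, Akt and mTOR arm, 0 were called in WT mice and 3 in Adm+/- mice, beside 17.6% and 25% of all tested genes. Of these 3, Pik3r2, a regulatory subunit of PI3K, fell by 0.80 (adjusted p = 0.00611), while the kinase gene Akt2 rose by 0.66 (adjusted p = 0.000747) and Pik3r1, another regulatory subunit, rose by 0.51 (adjusted p = 0.0112), the latter pair named after their values were seen. The Pik3r1 value was under 0.5 and not called without Adm+/- PBS replicate 6 (0.49), Adm+/- LPS replicate 2 (0.47) or both PBS libraries that stood apart (0.49), and in WT mice, where it was 0.47, it was called without WT PBS replicate 4 (0.64, adjusted p = 0.00362).

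In the growth hormone arm, which drives Igf1 in liver, 2 of 8 genes were called higher and 1 lower in WT mice, beside 10.5% and 7.09% of all tested genes, and 4 higher and 0 lower in Adm+/- mice, beside 12.8% and 12.2%. The receptor gene Ghr was not called (-0.22 and -0.26). Jak2, the kinase that it uses, rose by 0.68 and 1.21 (adjusted p = 0.00758 and 0.000171), and its WT call was lost in the 6 WT libraries alone (0.67, adjusted p = 0.0542). Stat5a, a factor that this kinase activates, named after its values were seen, rose by 1.05 in Adm+/- mice (adjusted p = 0.00111) and had a value of 0.49 in WT mice (adjusted p = 0.064) that was called without WT PBS replicate 5, WT LPS replicate 11 or both PBS libraries that stood apart (0.64 to 0.67). It overlaps Stat3 on the opposite strand. Socs2, a feedback inhibitor of the receptor, had a value of 0.08 in WT mice (adjusted p = 0.719) and rose by 0.72 in Adm+/- mice (adjusted p = 0.00497). Socs1 fell by 0.97 in WT mice (adjusted p = 0.0125) and had a value of -0.45 in Adm+/- mice (adjusted p = 0.147). The WT call of Socs1 was lost without WT LPS replicate 9 (-0.79, adjusted p = 0.0551) and in the 6 WT libraries alone (-0.97, adjusted p = 0.053). Socs3, named after its values were seen, rose by 1.597 and 3.71 (adjusted p = 0.0305 and 0.000322), with overlap between the WT groups. Its WT call was lost without WT PBS replicate 3 (1.27, adjusted p = 0.0686) or 5 (1.36, adjusted p = 0.0822) and without WT LPS replicate 9 (1.19, adjusted p = 0.146) or 10 (1.59, adjusted p = 0.0572), as well as without both PBS libraries that stood apart (1.36, adjusted p = 0.09) and in the 6 WT libraries alone (1.59, adjusted p = 0.126). The value was 2.42 and called without WT PBS replicate 4. None of these genes was called in the difference between responses.

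Among the ligands and receptors outside the 9 members, Igf2, the second ligand, stood at 120.1, 82.7 and 162 CPM in WT PBS and at 483, 389 and 339 CPM in WT LPS. Igf2 in Adm+/- mice was at 88.2, 97.7 and 91.8 CPM in PBS and at 96.8, 104 and 115 CPM in LPS. The WT LPS libraries lay above all 9 others. Igf2 rose by 1.73 in WT mice (SE 0.21, adjusted p = 0.000424), had a value of 0.19 in Adm+/- mice (adjusted p = 0.531) and was lower in Adm+/- LPS than in WT LPS by a log2 difference of -1.94 (adjusted p = 0.000685). The difference between responses was -1.55 and was not called (adjusted p = 0.0862), though it passed the threshold without WT PBS replicate 5 (-1.80, adjusted p = 0.0135), without both PBS libraries that stood apart (-1.84, adjusted p = 0.0357) and with DESeq2 (-1.54, adjusted p = 0.000307). The 13 skeletal muscle markers moved with Igf2, at 2289.5 to 5322 CPM in WT LPS against 184 to 739.6 CPM in the other groups, and all 12 that were tested were called higher in WT mice. Their part in the Igf2 values was not tested. Insr and Igfals were not called (0.20 and -0.17 in WT mice, 0.19 and 0.18 in Adm+/- mice), and Igf2bp2 and Igf2bp3, which encode proteins that bind Igf2 mRNA, rose by 0.88 and 0.67 in WT mice (adjusted p = 0.00201 and 0.00436) and by 1.42 and 0.64 in Adm+/- mice (adjusted p = 8.27e-05 and 0.0032). The WT call of Igf2bp3 was lost in the 6 WT libraries alone (0.67, adjusted p = 0.0594).

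With glmTreat, 7 of the 11 WT calls on this list were lost, those of Stc2, Jak2, Socs1, Socs3, Irs1, Foxo3 and Igf2bp3. In Adm+/- mice 6 of 15 were lost, those of Htra1, Socs2, Pik3r1, Pik3r2, Akt2 and Igf2bp3.

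**Figure D5:**
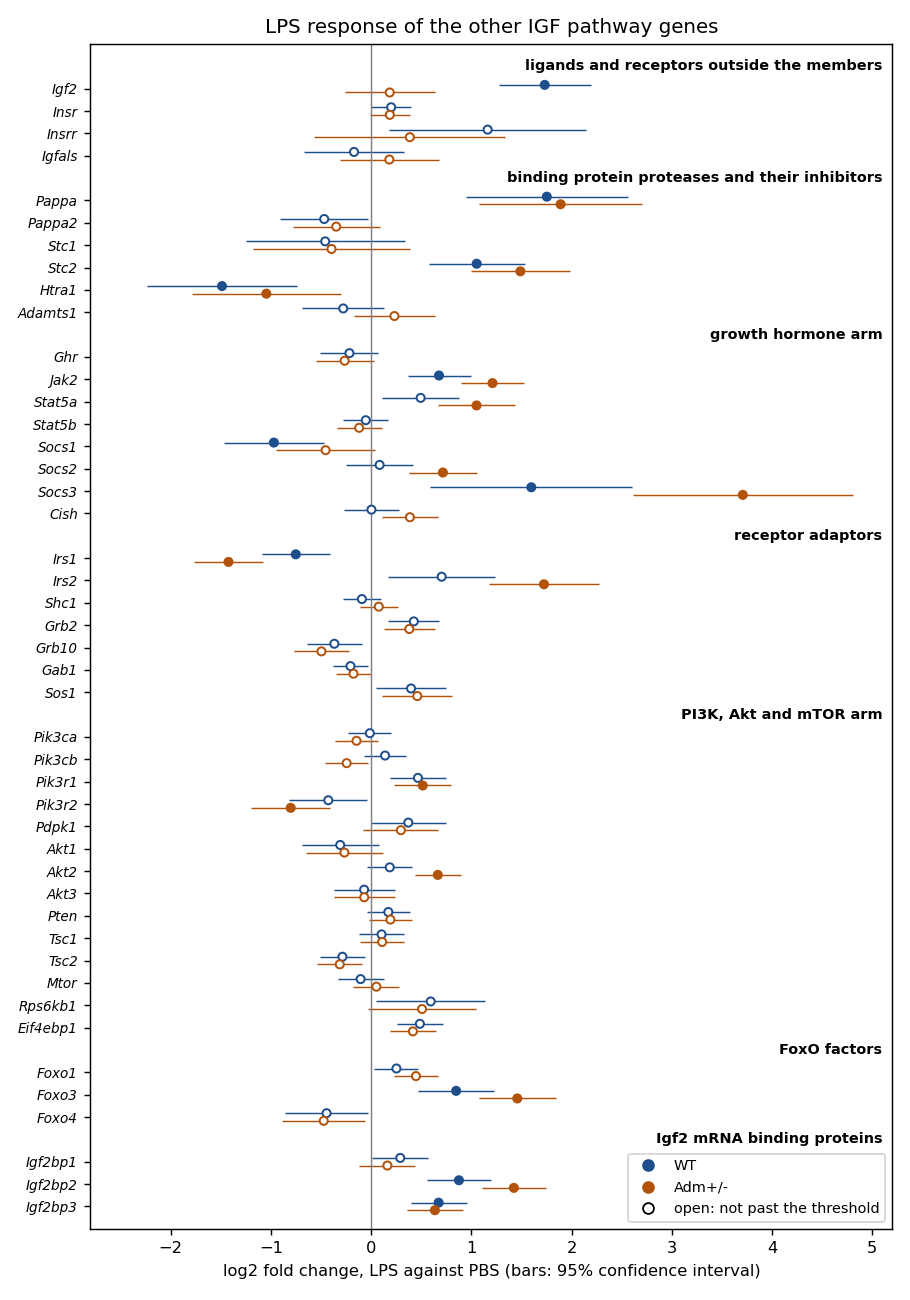
Log2 fold change of LPS against PBS for the 45 tested pathway genes outside the 9 members, by arm, in WT (blue) and Adm+/- (orange) mice, with 95% confidence intervals and filled points where the gene was called. Socs3 lies furthest right at 3.71 in Adm+/- mice, and Igf2 is filled in WT mice alone.

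For each member, the 3 genes whose log2 CPM followed it most closely over the 12 libraries were found by Pearson r, which is a description of libraries that share groups and depth. For Igfbp3 they were Pik3r5 (0.995), Gas7 (0.991) and Ikbke (0.991), and the values after removal of the group means were 0.86, 0.694 and 0.897. For Igfbp2 they were Guk1 (0.988), Dhx30 (0.988) and Gna12 (0.984), and for Igfbp4 Ppm1f (0.962), Bcar1 (0.962) and Ddost (0.958). Igfbp7 was followed most closely by Abcf1 (0.981), Rcc1l (0.980) and Tomm40 (0.977), Igfbp6 by 2010300C02Rik (0.955), Pitpnm1 (0.947) and Aldh3b1 (0.946), and Igfbp5 by Chd5 (0.869), Cfap74 (0.863) and Myo1h (0.862). Igf1 was followed by Zfp808 (0.973), Mbnl3 (0.959) and Gpx8 (0.959), Igf1r by Ndst1 (0.932), Gm35060 (0.926) and Rnf25 (0.925), and Igf2r by Pou5f2 (0.967), Agap1 (0.966) and Zfr2 (0.965). For the members other than Igfbp3 the lowest value after removal of the group means was 0.810, for Igf1r with Gm35060. Both PBS libraries that stood apart are part of all these values, which were not computed without them.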

How the data were processed

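The authors trimmed the reads with Trim Galore, aligned them to mm10 with HISAT2 and counted them with featureCounts, and they deposited whole-number raw counts for 52550 genes in 12 libraries, with no normalization. The Gencode release and the strand setting of the counting are not given in the sources used here. Gene positions and exon lengths were taken from Gencode M21 on mm10, and promoter sequences from RefSeq on the same build.

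The software was edgeR 4.0.16, DESeq2 1.42.0 and limma 3.58.1 on R 4.3.3. From the 21950 protein-coding genes, filterByExpr kept 15885, which were scaled by TMM factors and entered into the quasi-likelihood F-test of edgeR in a single fit with 1 coefficient per group, 8 residual degrees of freedom and no covariate. The 5 contrasts were LPS against PBS in each genotype, their difference, and the genotypes against each other within PBS and within LPS. Calls required both an absolute log2 fold change over 0.5 and a Benjamini-Hochberg adjusted p under 0.05. Levels are CPM of the TMM-adjusted total over the tested protein-coding genes, divided by exon kb where genes are compared, and likeness used log2 CPM with a prior count of 2. Intervals are 95% confidence intervals of the fit. No pair of replicates held identical counts or agreed within counting error (chi-square statistics were 9.92 to 112 times their degrees of freedom). Each library was from 1 mouse, and litters are not given.

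The members and gene lists were chosen with earlier results of these data known. The genes named are the 9 members, then Igf2, Igfbp1, Igfals, Insr, Pappa, Pappa2, Stc1, Stc2, Ghr and Socs2, at most 3 further rises and 3 further falls of smallest p per genotype among called pathway genes, and the 3 genes most like each member. Igfbpl1, Irs2, Socs3, Stat5a, Stat3, Akt2, Pik3r1, Adm, Airn, Igf1os, Gm34648, Polr2b and Gm26917 are named outside this rule. Of the 14 marker lists counted, 8 are reported beside the members or Igf2, and the other 6 in the closing section. Alternatives were RLE size factors, DESeq2, limma-voom, glmTreat against a log2 fold change of 0.5, adjusted p alone, no filter, a filter of 1 CPM in 3 libraries, all annotated genes, the 6 libraries of a comparison alone, both PBS libraries that stood apart left out, and each library left out in turn.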

Additional observations from a re-analysis of the deposited data

How the results depend on the processing

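Over 981 values of the 9 members in the 5 contrasts under an alternative, 15 lost a call, 10 gained one, and none kept a call with the opposite sign, while 36 values called in neither setting changed sign. The number of members called in WT mice was 3, and 1 with glmTreat against a log2 fold change of 0.5, 1 in a fit of the 6 WT libraries alone, and 1 to 3 over single left-out libraries, the lowest without WT LPS replicate 9. In Adm+/- mice it was 2, and 1 with glmTreat, 4 in a fit of the 6 libraries alone, 5 without both PBS libraries that stood apart, and 1 to 4 over single left-out libraries. Of all tested genes, 17.6% were called in WT mice, 6.3% with glmTreat, 7.39% in the 6 libraries alone and 9% to 19.1% over left-out libraries. In Adm+/- mice 25% were called, and 10.7% with glmTreat and 29.2% in the 6 libraries alone. The Adm+/- share was 24.4% without both PBS libraries and 18.8% to 27.9% over left-out libraries. Igfbp3 alone was called in every setting in both genotypes. Of the other pathway genes, 11 were called in WT mice, and 4 with glmTreat, 5 in the 6 libraries alone and 9 to 14 over left-out libraries, and 15 in Adm+/- mice, with 9 under glmTreat and 13 to 16 over left-out libraries. In the difference between responses 0 were called, and 1 (Igf2) with DESeq2, 1 without both PBS libraries and 0 to 1 over left-out libraries, the highest without WT PBS replicate 5. In Adm+/- against WT in LPS 1 was called, and 4 with DESeq2 and 1 to 3 over left-out libraries, with 3 without WT LPS replicate 9 and 2 without WT PBS replicate 5 or WT LPS replicate 10. The causes of these changes were not tested. No scaling moved the median of all genes by 0.1. Over all genes, 2791 were called in WT mice, 1001 with glmTreat, 1152 in the 6 libraries alone and 1443 without WT LPS replicate 9, and 3968 in Adm+/- mice, 1695 with glmTreat. The difference between responses had 23 calls, 168 with DESeq2, 1 with limma-voom, 13 with glmTreat and 5 (without Adm+/- PBS replicate 7) to 65 (without WT LPS replicate 10) over left-out libraries. Adm+/- against WT in LPS had 325, 803 with DESeq2, 133 with glmTreat, 548 without both PBS libraries and 81 (without Adm+/- LPS replicate 1) to 573 (without WT PBS replicate 5) over left-out libraries. No paired analysis was possible because the labels give each library its own number and the groups share none.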

Other observations

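Other marker lists were summed in each library beside the members. The squamous epithelium list lay at 25.5 to 2979.5 CPM in WT LPS, against 1.18 to 41.1 CPM in the other groups, and was highest in WT LPS replicate 9, the library with the highest Igfbp3 value (131 CPM) and Pappa value (33.96 CPM). The mesothelium list had 2 of 7 genes called higher in each genotype, the type I pneumocyte list 1 and 2 of 8 higher, and the liver list 2 and 1 of 7 tested genes higher at no more than 87.6 CPM. The cartilage list summed to 201 CPM in WT PBS replicate 5, against 30.3 to 71.9 CPM in the other 11 libraries, with 1 of 7 tested genes called higher in Adm+/- mice. The erythroid list had no gene called in either genotype and the cardiac muscle list 1 of 8 higher in WT mice. None of these lists was tested against a member.

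The ratio of summed binding protein transcripts to Igf1 transcripts, both per kb, was 39.3 to 196 in WT PBS, 46.0 to 79.3 in WT LPS, 42.5 to 98.6 in Adm+/- PBS and 72.5 to 108 in Adm+/- LPS, and the highest value of each PBS group was that of a library that stood apart.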
